A study of Mus musculus with 18 samples.

Results

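Phosphate handling in the kidney was followed through 8 genes, chosen by name from the 78239 genes listed for each library. They were the sodium-phosphate cotransporter genes *Slc34a1*, *Slc34a3*, *Slc20a1* and *Slc20a2*, the phosphate exporter gene *Xpr1*, the Klotho gene *Kl*, and the receptor genes *Fgfr1* and *Pth1r*. All 8 were found by their Ensembl identifiers, and 8 of 8 had at least 10 reads in every library, so none was lost to the filter on low counts. Kidney RNA from 18 mice was sequenced, each mouse giving 1 library. There were 5 males and 5 females in the LP group, and 5 males and 3 females in the NP group. The mice were outbred CD-1 animals labelled as wild type. LP offspring had dams fed a low protein diet (8% protein), and NP offspring had dams fed a normal protein diet (18% protein), through gestation and lactation. All offspring, LP and NP, received the NP diet from weaning, and kidneys were collected at 6 wk of age. Every mouse had been injected with cationic ferritin, an iron-bearing contrast agent for glomerular imaging. The interval between the final injection and collection was 90 min for males but 24 h for females, so sex and time since injection cannot be told apart in any comparison of males with females. The sources used here do not tie mice to litters, and the p-values measure the spread between mice, some of which may share a dam.

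Phosphate filtered at the glomerulus is taken back mainly in the proximal tubule, through cotransporters of the brush border that carry phosphate into the cell together with sodium. This uptake is lowered by parathyroid hormone (PTH), which acts on the receptor encoded by *Pth1r*, and by FGF23, a bone hormone that binds FGF receptors such as the product of *Fgfr1* with Klotho as its co-receptor. Both act largely by removing cotransporter protein from the brush border, which counts of RNA do not measure.

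The libraries held 14050486 to 23562411 reads assigned to genes. LP females 1 and 2 and NP female 3 stood apart from the other 15 libraries. Their median correlation with the other libraries was between 0.902 and 0.930. It was between 0.9405 and 0.951 in the other 5 females, a narrow gap, and between 0.964 and 0.981 in males. In the 3 libraries, 8 interferon-response genes summed to between 103 and 157 CPM (counts scaled to a common library total), against 819 to 3246 CPM in the other 5 females. The summed level of 9 glucocorticoid-response genes was between 362 and 680 CPM in the 3 libraries and between 1394 and 1840 CPM in the other 5 females. In males this sum was between 655 and 1069 CPM, below each of those 5 females. Values without these 3 libraries are given beside the comparisons of males with females. Proximal tubule, the labelled tissue's main source of phosphate transport, was present by its markers: 8 genes of the early proximal segments (S1 and S2) summed to between 2520 and 6630 CPM over all libraries, and 0 of the 8 was at 0 reads throughout.

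The genes lie on GRCm39 as follows, with extents from GENCODE vM39. *Slc34a1* (ENSMUSG00000021490.13), which encodes NaPi-IIa, the main brush-border phosphate cotransporter of the mouse, spans chr13:55546000-55563413 on the plus strand. *Slc34a3* (ENSMUSG00000006469.14), which encodes its relative NaPi-IIc, spans chr2:25118910-25124376 on the minus strand. *Slc20a1* (ENSMUSG00000027397.16) and *Slc20a2* (ENSMUSG00000037656.11), which encode the widely expressed cotransporters PiT-1 and PiT-2, span chr2:129040256-129053536 and chr8:22966111-23059686, both on the plus strand. *Xpr1* (ENSMUSG00000026469.16), whose product carries phosphate out of cells, spans chr1:155151407-155293181 on the minus strand. *Kl* (ENSMUSG00000058488.9) spans chr5:150876072-150917284 and *Fgfr1* (ENSMUSG00000031565.21) spans chr8:26003670-26066824, both on the plus strand. *Pth1r* (ENSMUSG00000032492.16) spans chr9:110550767-110576259 on the minus strand. Reads were counted without regard to strand. A read on exon bases shared with an overlapping gene of the opposite strand was thus ambiguous and was left out. Over all genes, ambiguous reads made up 6.58% to 7.38% of the reads of a library. Among opposite-strand genes that share exon bases with a member, *Smim19* had the most reads, between 409 and 806 per library. It shares 849 bases of exon with *Slc20a2* (7.53% of the exon bases of *Slc20a2*). *Slc20a1* shares exon bases with the opposite-strand transcript *9830144P21Rik*, which had between 5 and 46 reads. Larger shares of exon bases overlap opposite-strand genes that had 0 counted reads in every library. *Slc20a1* shares 13.41% of its exon bases with *Gm74587* and 13.04% with *Gm56350*, and *Slc34a1* shares 8.6% with *Pfn3*. Reads lost on shared bases are not recorded per gene, and their part in the levels of the 8 genes was not tested.

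Promoter windows of 250 bases before the RefSeq transcription start were available for 6 of the 8 genes and not for *Slc20a2* and *Fgfr1*. The windows of *Slc34a1*, *Xpr1*, *Kl* and *Pth1r* are shown because these are the 4 genes with a window that were called higher in males than in females over all 18 mice, as described below. They run 5′ to 3′ on the strand of the gene, at chr13:55547211-55547460 (plus), chr1:155293191-155293440 (minus), chr5:150875822-150876071 (plus) and chr9:110576260-110576463 (minus) of GRCm39. None of the printed bases lies in an annotated exon: for *Pth1r*, which has 3 windows, the 204 bases outside the gene are printed, and 46 exon bases of that window are left out. The *Xpr1* and *Kl* windows also lie outside the gene as annotated, while the *Slc34a1* window lies inside it, before a start site 1461 bases from the annotated 5′ end of the gene. Capitals mark matches to AGAACA or its reverse complement TGTTCT (a half-site of the androgen and glucocorticoid receptors), AGGTCA or TGACCT (a nuclear receptor half-site), GTTAAT or ATTAAC (a half-site of HNF1, a transcription factor of kidney tubules), and GGGCGG or CCGCCC (a GC box).

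Slc34a1: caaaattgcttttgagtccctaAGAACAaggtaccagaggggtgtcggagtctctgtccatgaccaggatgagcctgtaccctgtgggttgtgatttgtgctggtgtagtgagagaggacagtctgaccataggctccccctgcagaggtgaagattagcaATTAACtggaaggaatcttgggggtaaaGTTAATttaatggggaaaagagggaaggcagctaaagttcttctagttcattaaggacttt

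Xpr1: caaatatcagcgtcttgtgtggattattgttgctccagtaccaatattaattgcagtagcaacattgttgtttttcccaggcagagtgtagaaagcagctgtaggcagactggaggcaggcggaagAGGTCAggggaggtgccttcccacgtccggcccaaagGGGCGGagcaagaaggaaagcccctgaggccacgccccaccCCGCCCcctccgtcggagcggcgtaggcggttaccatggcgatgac

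Kl: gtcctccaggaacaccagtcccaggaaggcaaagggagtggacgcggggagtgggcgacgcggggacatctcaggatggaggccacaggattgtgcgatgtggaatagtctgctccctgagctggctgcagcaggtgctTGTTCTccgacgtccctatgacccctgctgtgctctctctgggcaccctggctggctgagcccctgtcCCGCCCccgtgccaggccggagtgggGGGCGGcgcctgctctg

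Pth1r: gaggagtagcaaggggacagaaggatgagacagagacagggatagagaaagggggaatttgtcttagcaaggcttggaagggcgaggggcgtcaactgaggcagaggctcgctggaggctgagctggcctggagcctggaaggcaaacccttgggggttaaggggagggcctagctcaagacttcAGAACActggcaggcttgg

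The *Slc34a1* window holds 1 match to the steroid receptor half-site, 228 bases before the start, and 2 to the HNF1 half-site, at 89 and 61 bases before it. The *Kl* window holds 1 match to the steroid receptor half-site, at 111 bases, and 2 GC boxes. The *Xpr1* window holds 1 nuclear receptor half-site, at 124 bases, and 2 GC boxes. The *Pth1r* stretch holds 1 match to the steroid receptor half-site, at 65 bases. Among 32851 RefSeq windows of this length, 16.1% hold the steroid receptor half-site, 14.02% the nuclear receptor half-site, 6.43% the HNF1 half-site, and 32.7% a GC box. No window of the 6 genes holds TATAAA on either strand, against 12.4% of all windows. Among the windows not shown, 1 of *Slc20a1*, which was not called between the sexes, holds the steroid receptor half-site 204 bases before the start. The window of *Slc34a3*, which was called lower in males, and the other windows of *Pth1r* hold no match to it. The *Slc34a3* window holds 2 nuclear receptor half-sites, at 33 and 6 bases before the start, and each *Slc20a1* window holds 1. The *Slc20a1* windows hold 2 and 1 GC boxes, and the other *Pth1r* windows hold 1 and 4. These are matches of letters only, and a link between them and the differences of males from females was not tested.

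Levels of different genes were compared per length, as TPM (counts divided by the total exon length of each gene and scaled to a common library total). *Slc34a1* was the most abundant of the 8, with a mean of 3219 TPM over the 18 mice. *Pth1r* followed with 667 TPM, *Kl* with 296 TPM, and *Slc34a3* with 92.6 TPM. The remaining 4 were lower and close to each other, at 28.7 TPM for *Xpr1*, 21.6 TPM for *Slc20a2*, 19.2 TPM for *Slc20a1*, and 14.6 TPM for *Fgfr1*. The first 4 steps of this order, from *Slc34a1* down to *Xpr1*, held in 18 of 18 mice. The lower steps did not hold in every mouse: *Xpr1* was above *Slc20a2* in 15 of 18, *Slc20a2* above *Slc20a1* in 14, and *Slc20a1* above *Fgfr1* in 16. With the length of the longest transcript in place of total exon length, *Fgfr1* (23.8 TPM) was above *Slc20a1* (20.5 TPM), and *Slc34a3* (78.4 TPM) exceeded *Xpr1* (52.5 TPM) in only 11 of 18 mice. The brush-border pair thus differed far more in level than the PiT pair: per length, *Slc34a1* exceeded *Slc34a3* by 57.6 ± 16.6-fold (SD, n = 10) in males and 23.7 ± 5.60-fold (n = 8) in females.

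**Figure D1:**
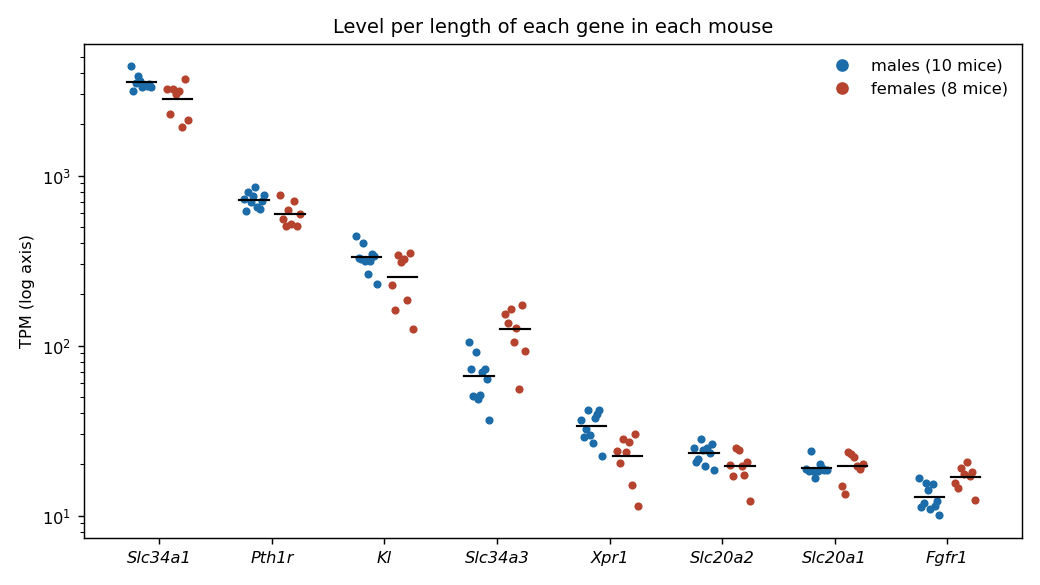
TPM (log axis) of each gene in each of 10 males and 8 females, with the mean of each sex as a bar. The genes spread from a mean of 14.6 TPM (*Fgfr1*) to 3219 TPM (*Slc34a1*), and *Slc34a3* is the transporter whose female points lie highest above the male ones.

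Maternal diet was compared separately in males and in females by quasi-likelihood tests in edgeR, and a gene was called at an adjusted p under 0.05 over all genes tested. In males, 0 of the 8 genes were called, where 0.0379% of 13181 genes were. Among the 8, only *Kl* had an unadjusted p under 0.05, as 3.84% of all genes did, and DESeq2, which called 19 genes in males, called 0 of the 8. In females, 0 of the 8 were called, where 0.0% of 13510 genes were. None of the 8 had an unadjusted p under 0.05 there, against 4.17% of all genes, and DESeq2, which called 9 genes, called 0 of the 8. Whether diet acted differently in males and females, tested as an interaction, was called for 0 of the 8, where 0.0158% of 12665 genes were, and 0 of the 8 had an unadjusted p under 0.05, against 4.02% of all genes. Under limma-voom, which weights down libraries of higher spread, 0 of the 8 were called in any of the 3 tests, but the female values were larger: the log2 difference LP minus NP was 0.89 (SE 0.29) for *Slc34a3*, 0.63 (SE 0.17) for *Xpr1*, 0.57 (SE 0.24) for *Kl*, and 0.46 (SE 0.19) for *Slc34a1*. These 4 genes had an unadjusted p under 0.05 there, as 18.04% of all genes did, with limma adjusted p between 0.222 and 0.266. For the interaction, limma-voom gave 3 of the 8 an unadjusted p under 0.05, against 23.05% of all genes, with 0.79 (SE 0.21, limma adjusted p = 0.105) for *Xpr1*. LP and NP values overlapped for each of the 8 genes in each sex, whereas they did not overlap for 0.713% of all genes in males and 3.07% in females.

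*Slc34a1*, the main uptake route, had normalized read counts (counts divided by DESeq2's size factors) of 132065, 109001, 117583, 106753 and 109960.0 in the LP males and 112067, 103166, 108227, 106563 and 112859 in the NP males. The means were 115072 ± 10335 (SD, n = 5) in LP and 108577 ± 3999 (n = 5) in NP males, and only LP males 1 and 3 lay above all NP males. The log2 difference LP minus NP was 0.10 (standard error, SE, 0.09, edgeR adjusted p = 0.9996). In females the counts were 92008, 64041, 91159, 91352 and 86096.5 in LP and 54816, 97588.5 and 79384 in NP mice. The LP values lay inside the NP range, and the log2 difference was 0.11 (SE 0.24, edgeR adjusted p = 0.946).

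*Slc34a3* had 1183, 932, 627, 942 and 554 normalized counts in the LP males and 642, 787, 868, 734 and 462 in the NP males. LP males 1, 2 and 4 were above all NP males, while the other 2 lay inside the NP range. The log2 difference was 0.29 (SE 0.22, edgeR adjusted p = 0.9996). In females, LP mice had 1619, 1402, 1724, 1183 and 1299 and NP mice 589, 1697 and 1308, so that the NP range enclosed all LP mice but 1. The log2 difference was 0.25 (SE 0.30, edgeR adjusted p = 0.914).

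*Kl*, the co-receptor of FGF23, gave the smallest diet p-value of the 8 in males. The LP males had 19622, 16713, 15916, 16471 and 14305 normalized counts and the NP males 13109, 14005, 16404, 15274 and 11592. LP males 1, 2 and 4 exceeded all NP males. The means were 16605 ± 1929.8 (SD, n = 5) and 14077 ± 1868 (n = 5), a log2 difference of 0.25 (SE 0.12, unadjusted p = 0.0499, edgeR adjusted p = 0.9996). An exact two-sided permutation test of the log2 normalized counts gave p = 0.0635, where the smallest p this design can give is 0.00794, and this was the smallest raw p of 16 such tests (8 genes in 2 sexes). In females *Kl* varied more: LP mice had 9523, 6609, 14127, 13907 and 13005 counts and NP mice 7825, 13534 and 6952. The low values were those of LP females 1 and 2 and NP females 1 and 3. The log2 difference was 0.25 (SE 0.31, edgeR adjusted p = 0.914) in all females and 0.34 (SE 0.24, edgeR adjusted p = 0.972) without the 3 libraries that stood apart.

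The other 5 genes were not called for diet in either sex. In males, *Fgfr1* differed by 0.18 (SE 0.11) on the log2 scale, *Slc20a2* by 0.06 (SE 0.09), *Slc20a1* by 0.00 (SE 0.12), *Xpr1* by -0.02 (SE 0.14), and *Pth1r* by -0.04 (SE 0.12). In females, *Xpr1* differed by 0.32 (SE 0.23), *Slc20a2* by 0.25 (SE 0.17), *Fgfr1* by 0.04 (SE 0.14), *Slc20a1* by -0.14 (SE 0.24), and *Pth1r* by -0.15 (SE 0.22). The lowest adjusted p of edgeR among the 8 in females was 0.886, for *Slc20a2* and *Xpr1*. The female values of 4 genes depended on single mice. Without NP female 2 the log2 differences were 0.70 for *Xpr1* (edgeR adjusted p = 0.118), 0.62 for *Kl* (adjusted p = 0.285), 0.61 for *Slc34a3* (adjusted p = 0.297), and 0.34 for *Slc34a1* (adjusted p = 0.493). The lowest values in fits that left out 1 mouse were 0.18 for *Xpr1*, 0.087 for *Kl*, -0.061 for *Slc34a3*, and -0.066 for *Slc34a1*. Without the 3 libraries, the *Slc20a1* difference in females turned from -0.14 to 0.30 (SE 0.16, edgeR adjusted p = 0.972): LP females 1 and 2 had the lowest *Slc20a1* counts of all mice, at 414 and 366, and NP female 3 the highest female count, at 742. The SEs were wider in females (0.14 to 0.31), which had 3 NP mice, than in males (0.09 to 0.22). The parts of group size and of spread between mice in this were not tested. Wider SEs limit the size of diet difference that could be detected.

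**Figure D2:**
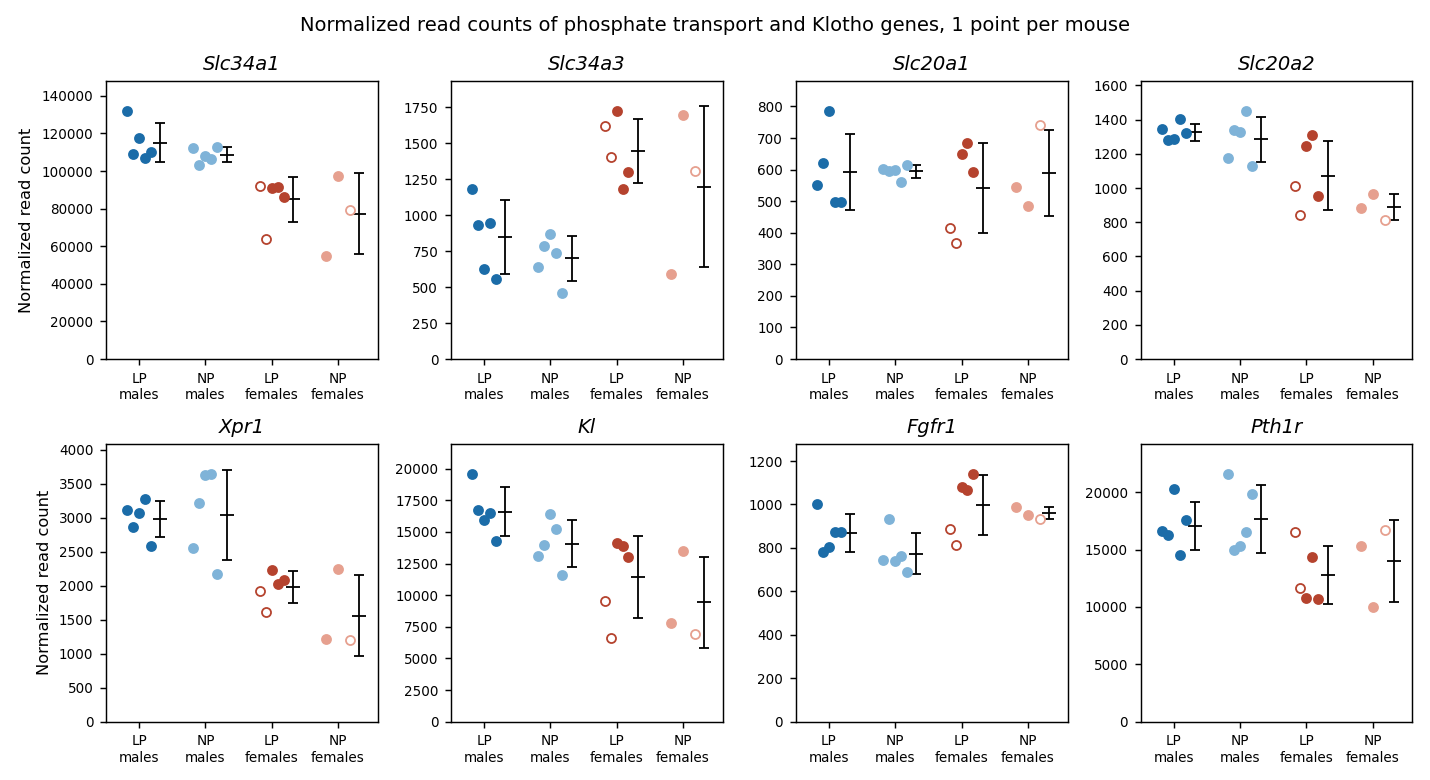
Normalized read counts (linear axes from 0) of the 8 genes in each mouse of the 4 groups, with the mean and SD beside each group, and open symbols for the 3 libraries that stood apart. LP and NP points overlap in every panel, while for *Slc34a1* the 10 males, from 103166 upward, all lie above the 8 females, at most 97588.5.

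Males and females differed in 7 of the 8 genes (edgeR, mean of the male groups minus mean of the female groups, adjusted p under 0.05), where 38.7% of 12665 genes were called. Of these, 5 were higher in males, against 18.9% of all genes, and 2 were lower, against 19.8%. The median log2 difference of the 8 was 0.35 and that of all genes tested -0.05. When counts were scaled by library totals alone, the median of all genes moved to -0.19 and the split of all calls from 2394 higher and 2506 lower to 1498 higher and 3888 lower, and 6 of the 8 genes were called: *Pth1r* was not. The direction of the 7 called genes was the same under both scalings.

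Both brush-border cotransporter genes differed between the sexes, in opposite directions. *Slc34a1* was higher in males, with 111824 ± 8143 normalized counts (SD, n = 10) against 82056 ± 15117 (n = 8) in females, a log2 difference of 0.42 (SE 0.11, edgeR adjusted p = 0.0056). It was the only one of the 8 in which all 10 males lay above all 8 females, which was the case for 6.64% of all genes tested. On the CPM scale, which divides by library totals, only 2 of 10 males were above all females. *Slc34a3* was lower in males, with 773 ± 215 counts (lowest 462, median 761, highest 1183) against 1353 ± 368 (lowest 589, median 1355, highest 1724) in females, and a log2 difference of -0.82 (SE 0.19, edgeR adjusted p = 0.0029). In 7 of 8 females, all but NP female 1, *Slc34a3* was above the highest male, though LP female 4 (1183.4) was level with LP male 1 (1183.2). As a result, the per-length ratio of *Slc34a1* to *Slc34a3* lay between 41.5 and 91.0 in males and between 17.001 and 34.6 in females, with no overlap. Both calls held without the 3 libraries, at 0.40 (SE 0.12) for *Slc34a1* and -0.76 (SE 0.23) for *Slc34a3*, and when any 1 mouse was left out (adjusted p at most 0.0163 and 0.0125). *Slc34a3* was not called by limma-voom (-0.46, adjusted p = 0.0537).

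Of the widely expressed cotransporters, *Slc20a2* was higher in males and *Slc20a1* did not pass the test. *Slc20a2* had 1306 ± 96.5 counts (lowest 1127, highest 1452; SD, n = 10) in males and 1003 ± 183 (lowest 814, highest 1313; n = 8) in females, a log2 difference of 0.38 (SE 0.08, edgeR adjusted p = 0.0018), and 6 of 10 males exceeded every female. Without the 3 libraries the difference was 0.29 (SE 0.09, adjusted p = 0.0152). *Slc20a1* had 593 ± 81.3 counts in males and 560 ± 132 in females, a log2 difference of 0.03 (SE 0.13, edgeR adjusted p = 0.889).

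*Xpr1*, the exporter gene, showed the largest male excess of the 8. The males had between 2171 and 3648 normalized counts with a median of 3089, and the females between 1205 and 2246 with a median of 1973. All males but NP male 5 were above every female. The log2 difference was 0.74 (SE 0.13, edgeR adjusted p = 0.00029), and 0.61 (SE 0.15, adjusted p = 0.0044) without the 3 libraries. It was called when any 1 mouse was left out and under each of the 9 alternative settings tried.

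Among the hormone receptor genes, *Kl* and *Pth1r* were higher and *Fgfr1* was lower in males. *Kl* had 15341 ± 2232 counts in males and 10685 ± 3291 in females, a log2 difference of 0.52 (SE 0.15, edgeR adjusted p = 0.0118). This call rested in part on the libraries that stood apart: without them the female mean was 12480 ± 2637 (SD, n = 5), the log2 difference 0.30 (SE 0.12), and the adjusted p 0.0673. *Fgfr1* had 821 ± 98.2 counts in males and 983 ± 109 in females, a log2 difference of -0.30 (SE 0.08, edgeR adjusted p = 0.0085), and 6 of 10 males were below every female. Without the 3 libraries its difference was -0.37 (SE 0.08, adjusted p = 0.0026). With no filter on low counts *Fgfr1* was not called (adjusted p = 0.139). *Pth1r* had 17350 ± 2429.9 counts in males and 13248 ± 2782 in females, a log2 difference of 0.33 (SE 0.13, edgeR adjusted p = 0.0463). Its call was close to the threshold, holding in only 5 of 18 fits that left out 1 mouse (those without LP male 4, LP female 1, NP males 2 or 3, or NP female 3), while without the 3 libraries together it was 0.46 (SE 0.13, adjusted p = 0.012).

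Within each maternal diet the same directions were seen for the 7 genes, with fewer calls. In NP mice 4 of the 8 were called (*Slc34a3*, *Slc20a2*, *Xpr1* and *Fgfr1*), where 24.4% of all genes were, and in LP mice 3 (*Slc34a1*, *Slc34a3* and *Xpr1*), where 18.5% were. These counts moved between 1 and 5 in NP mice and between 0 and 4 in LP mice when 1 mouse of the 18 was left out; the lowest came without NP female 3 in NP mice, and without LP male 3 or LP female 2 in LP mice. Without the 3 libraries that stood apart, none of the 3 LP calls held (edgeR adjusted p of 0.126 for *Slc34a1*, 0.1003 for *Slc34a3*, and 0.0947 for *Xpr1*), and the 1 gene called in LP mice was *Fgfr1* (adjusted p = 0.0334). In NP mice the *Slc34a3* call was lost without them (adjusted p = 0.114) and in 6 of 10 alternatives, and limma-voom gave -0.04 (adjusted p = 0.923) in place of -0.84. Since the interaction was called for 0 of the 8, no gene's sex difference was shown to depend on diet.

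**Figure D3:**
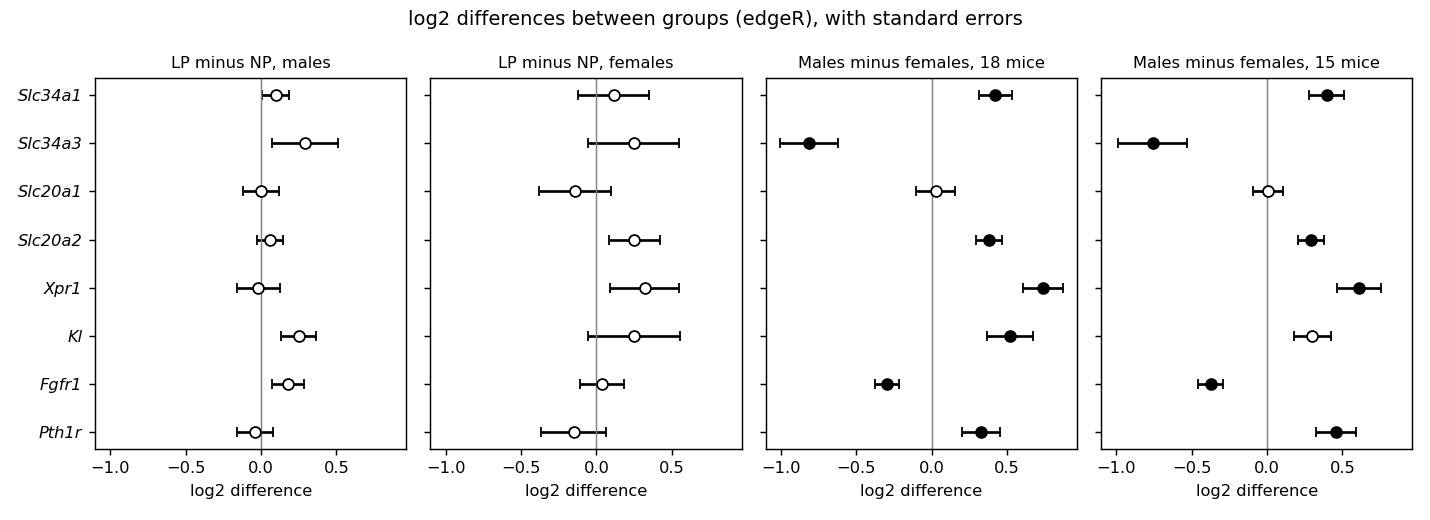
log2 differences of the 8 genes with standard errors, for LP minus NP in males and in females, and for males minus females over 18 mice and over 15 mice without the 3 libraries that stood apart. Filled points were called (adjusted p under 0.05): none in the diet panels, 7 over 18 mice, and 6 over 15, where *Kl* is open.

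Markers of kidney segments also differed between males and females. Of all genes tested, 18.9% were called higher and 19.8% lower in males. Of 8 genes of the last proximal segment (S3), 6 were higher and 1 lower in males, and their sum was between 5275 and 6923 CPM in males and between 557 and 1963 CPM in females. Of the 8 S1 and S2 genes, 1 was higher and 2 lower, and the sums overlapped, at 3984 to 5964 CPM in males and 2520 to 6630 CPM in females. Of 8 genes of the distal convoluted tubule, a site of high Klotho expression, 0 were higher and 6 lower in males, with sums of 1815 to 2399 CPM in males and 2420 to 4803 CPM in females. Markers of the thick ascending limb, the connecting tubule and the collecting duct were lower in 4 of 6 tested each and higher in 0. Their sums were 2220 to 4385 CPM in males against 2500 to 8006 CPM in females for the thick ascending limb, 1118 to 2235 against 2179 to 3668 for the connecting tubule, and 366 to 930 against 553 to 985 for the collecting duct. Podocyte markers were lower in males in 6 of 6, with sums of 157 to 266 CPM against 266 to 555 CPM. Leukocyte and blood markers were lower in 2 of 6 tested, and endothelial and stromal markers were called in 0 of 7 each. In bulk kidney, fewer cells of a segment and less RNA per cell cannot be told apart, and the part of these markers in the differences of the 8 genes was not tested.

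Between mice of the same group, several of the 8 genes varied together. After group means were removed from log2(CPM + 1), Pearson r over the 18 libraries was 0.81 for *Xpr1* with *Kl*, 0.71 for *Slc20a2* with *Kl*, 0.70 for *Slc20a2* with *Xpr1*, and 0.68 for *Slc34a3* with *Xpr1*. The brush-border pair *Slc34a1* and *Slc34a3*, which differed between the sexes in opposite directions, had r = 0.62 within groups. *Pth1r* ran the other way, with r = -0.69 with *Xpr1* and -0.65 with *Kl*. *Slc20a1* had no r beyond 0.24 in size with any other of the 8. For *Slc34a3* with *Kl*, r was 0.45 over all libraries and 0.95 over the 15 without the 3 that stood apart. These values are descriptions: each point is 1 library, so the genes of a pair share its depth and RNA quality.

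Long transcripts as a class also varied between libraries. The difference of the medians in group-centred log2(CPM + 1) between genes in the top and in the bottom quartile of transcript length ranged from -0.37 (NP male 5) to 0.50 (NP female 2). This length index had r = 0.93 with *Xpr1*, whose longest transcript of 7638 bases is longer than that of 89.1% of genes tested, and 0.82 with *Kl* (5828 bases). It had r = -0.86 with *Pth1r* (2864 bases) and 0.60 with *Slc34a3* (2183 bases). After length and GC trends were removed from each library, r became 0.61 for *Xpr1* with *Kl*, -0.17 for *Xpr1* with *Pth1r*, and -0.39 for *Kl* with *Pth1r*, while it was 0.76 for *Slc34a3* with *Xpr1* and 0.71 for *Slc34a1* with *Slc34a3*. In a fit of males against females with offsets for these trends, the same 7 genes were called, at 0.68 (SE 0.08) for *Xpr1* and 0.41 (SE 0.09) for *Pth1r*.

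**Figure D4:**
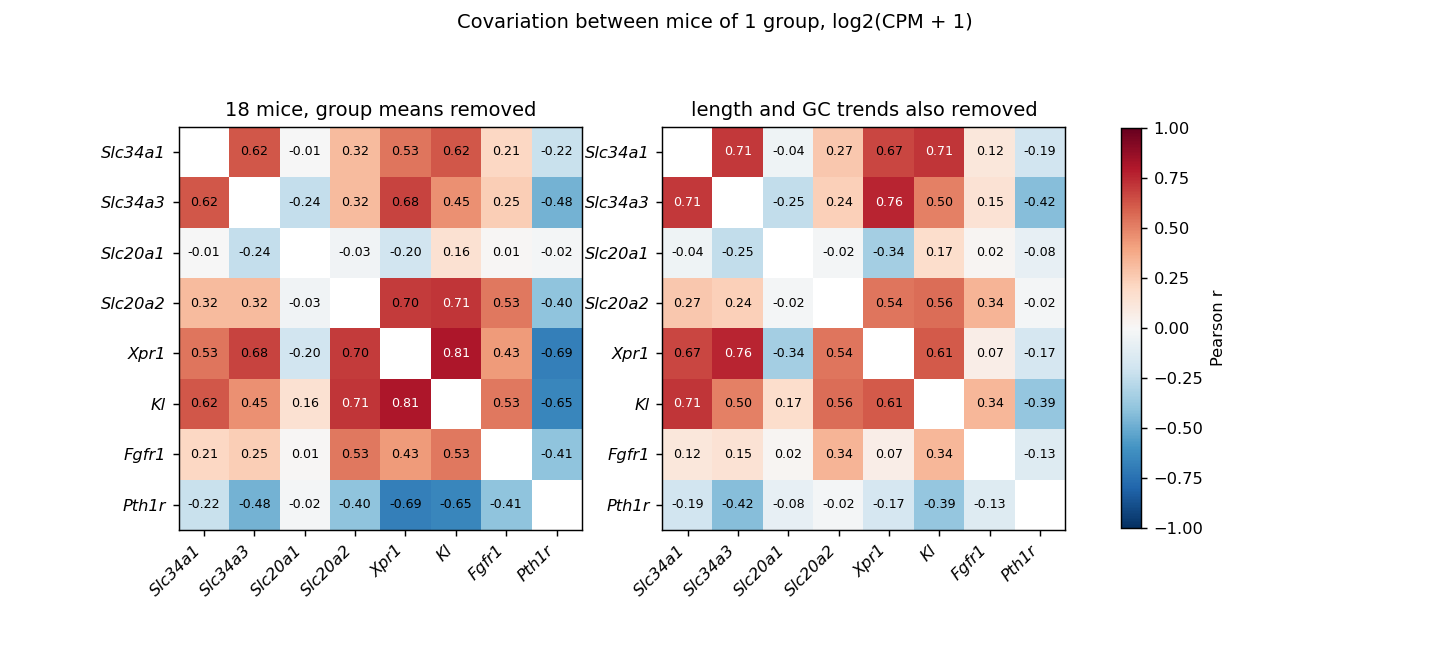
Pearson r between each pair of the 8 genes over 18 libraries, on log2(CPM + 1) with group means removed (left) and with length and GC trends also removed (right). The negative values of *Pth1r* with *Xpr1* shrink from -0.69 to -0.17, while *Slc34a3* with *Xpr1* goes from 0.68 to 0.76.

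Within groups, the summed S1 and S2 markers had r = 0.88 with *Slc34a3*, 0.85 with *Xpr1*, 0.78 with *Slc34a1*, 0.72 with *Kl*, and -0.66 with *Pth1r*. Length and GC trends were not removed from these r values or from those below, and the part of the trends in them was not tested. The distal convoluted tubule markers had r = 0.71 with *Fgfr1* and 0.69 with *Kl*, the latter 0.12 without the 3 libraries. *Kl* had r of similar size with the podocyte markers (0.80, and 0.57 without the 3 libraries), the interferon list (0.72, and 0.28) and the glucocorticoid list (0.70, and 0.34), and -0.62 with the leukocyte and blood markers (-0.51). Among 12665 genes, those most like *Slc34a3* over the 18 libraries were *Myrf* (r = 0.97), *Slc5a2*, which encodes the glucose transporter SGLT2 of the S1 segment and is one of the S1 and S2 markers (0.97), and *Pcdh7* (0.94). Those most like *Slc34a1* were *Acsm2* (0.89), *Insig1* (0.89) and *Nus1* (0.80). *Kl* was most like *Kcnj15* (0.94), *Igsf11* (0.94) and *Inpp5b* (0.93), and *Xpr1* most like *Ankrd52* (0.98), *Avl9* (0.97) and *Psme4* (0.97). *Pth1r* was most like *Chchd4* (0.96), *Gm73784* (0.94) and *Chchd2* (0.94), *Slc20a2* most like *Dctn1* (0.86), *Ddx19b* (0.86) and *Peli2* (0.84), and *Fgfr1* most like *Gm4524* (0.89), *Cecr2* (0.87) and *Arrdc4* (0.86). *Slc20a1* was most like *Bfar* (0.82), *Slc33a1* (0.80) and *Prr5* (0.80), each of which fell to between 0.57 and 0.64 without the 3 libraries.

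Other genes of phosphate handling were tested in the same fits. Of 38 such genes tested in males and 39 in females, 0 were called for diet in either sex by edgeR, with lowest adjusted p of 0.9996 and 0.886, and 0 of 38 for the interaction. Between the sexes 16 of 38 were called, 8 higher and 8 lower in males, where 38.7% of all genes were called. Over the 15 mice left without the 3 libraries, 22 were called: 15 of the 16 (not *Rxra*) and 7 others, *Slc34a2*, *Nherf4*, *Ezr*, *Gna11*, *Prkaca*, *Lrp2* and *Cubn*. With library totals alone 18 were called: 13 of the 16 (not *Fgfr4*, *Pdzk1* or *Rxra*) and 5 others, *Slc34a2*, *Nherf2*, *Ezr*, *Fgfr2* and *Prkar1a*. Of the 22, 10 were higher and 12 lower in males, where 2354 and 2524 of 12949 genes were. Of the 18, 5 were higher and 13 lower, where 1498 and 3888 of 12665 genes were. None of the 16 changed sign. Genes gained are named after their values were seen.

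Among 7 other tested genes linked to phosphate or pyrophosphate, not all of them transporter genes, 2 were higher and 3 lower in males. *Slc17a1* and *Slc17a3*, which encode organic anion transporters first described as phosphate cotransporters, were higher in males, by 1.19 (SE 0.06, edgeR adjusted p = 2.1e-10) and 1.31 (SE 0.13, adjusted p = 5.3e-07) on the log2 scale. *Slc17a1* had 14614 ± 1149 normalized counts (SD, n = 10) in males and 6168 ± 409 (n = 8) in females, with no overlap. Every male lay above all 8 females for 6.64% of all genes tested. *Slc17a2*, which was not tested because it had 0 to 3 reads in males, had 44 to 381 reads in females and is named here after its values were seen. *Alpl*, which encodes tissue-nonspecific alkaline phosphatase, was lower in males by 1.25 (SE 0.18, adjusted p = 2.9e-05), with 3976 ± 1269 against 9065 ± 1857 counts. *Ank*, the gene of the pyrophosphate transporter ANKH, was lower by 0.97 (SE 0.19, adjusted p = 0.00072). *Slc34a2*, the third gene of the *Slc34* family, was low and variable, with 36 to 450 reads, and differed by -0.79 (SE 0.36, adjusted p = 0.0887), or -1.19 (SE 0.31, adjusted p = 0.0073) without the 3 libraries.

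Of 5 scaffold genes that hold NaPi-IIa at the brush border, 2 were higher in males and 0 lower, *Nherf1* at 0.45 (SE 0.12, edgeR adjusted p = 0.0061) and *Pdzk1* at 0.26 (SE 0.10, adjusted p = 0.0497). With the 3 libraries left out, 3 were higher and 1 lower, and with library totals 1 was higher and 2 lower: *Ezr* was called lower in both (-0.41, SE 0.10, and -0.36, SE 0.12). Of 5 tested enzymes of inositol pyrophosphates, the signals sensed by XPR1, 1 was higher (*Ppip5k2*, 0.48, SE 0.12) and 2 were lower (*Ip6k2*, -0.59, SE 0.13, and *Ip6k1*). Of 8 tested genes of the FGF23 and Klotho axis, *Galnt3*, whose enzyme glycosylates FGF23, was higher at 0.67 (SE 0.10, adjusted p = 7.3e-05), *Fgfr4* was higher at 0.27 (SE 0.07), and *Fgfr3* was lower at -0.52 (SE 0.11). Of 7 tested genes of PTH signaling, 0 were higher and 2 lower: *Adcy6*, an adenylate cyclase gene (-0.61, SE 0.12, adjusted p = 0.00062), and *Casr*, the calcium-sensing receptor gene. A further 2 were higher without the 3 libraries, *Gna11* (0.29, SE 0.07) and *Prkaca* (0.18, SE 0.06), and with library totals *Prkar1a* was also lower (-0.22, SE 0.06). Of 6 tested vitamin D genes, 1 was higher, *Rxra* (0.28, SE 0.09, adjusted p = 0.0251). Over the 15 mice outside the 3 libraries, 0 were higher and 2 lower, *Lrp2* (-0.50, SE 0.11) and *Cubn* (-0.29, SE 0.09), which encode the endocytic receptors megalin and cubilin, and with library totals 0 were called. The single genes *Slc34a2*, *Nherf1*, *Pdzk1*, *Ip6k1*, *Casr* and *Rxra* fall outside the 10 smallest adjusted p-values and were named after their values were seen.

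**Figure D5:**
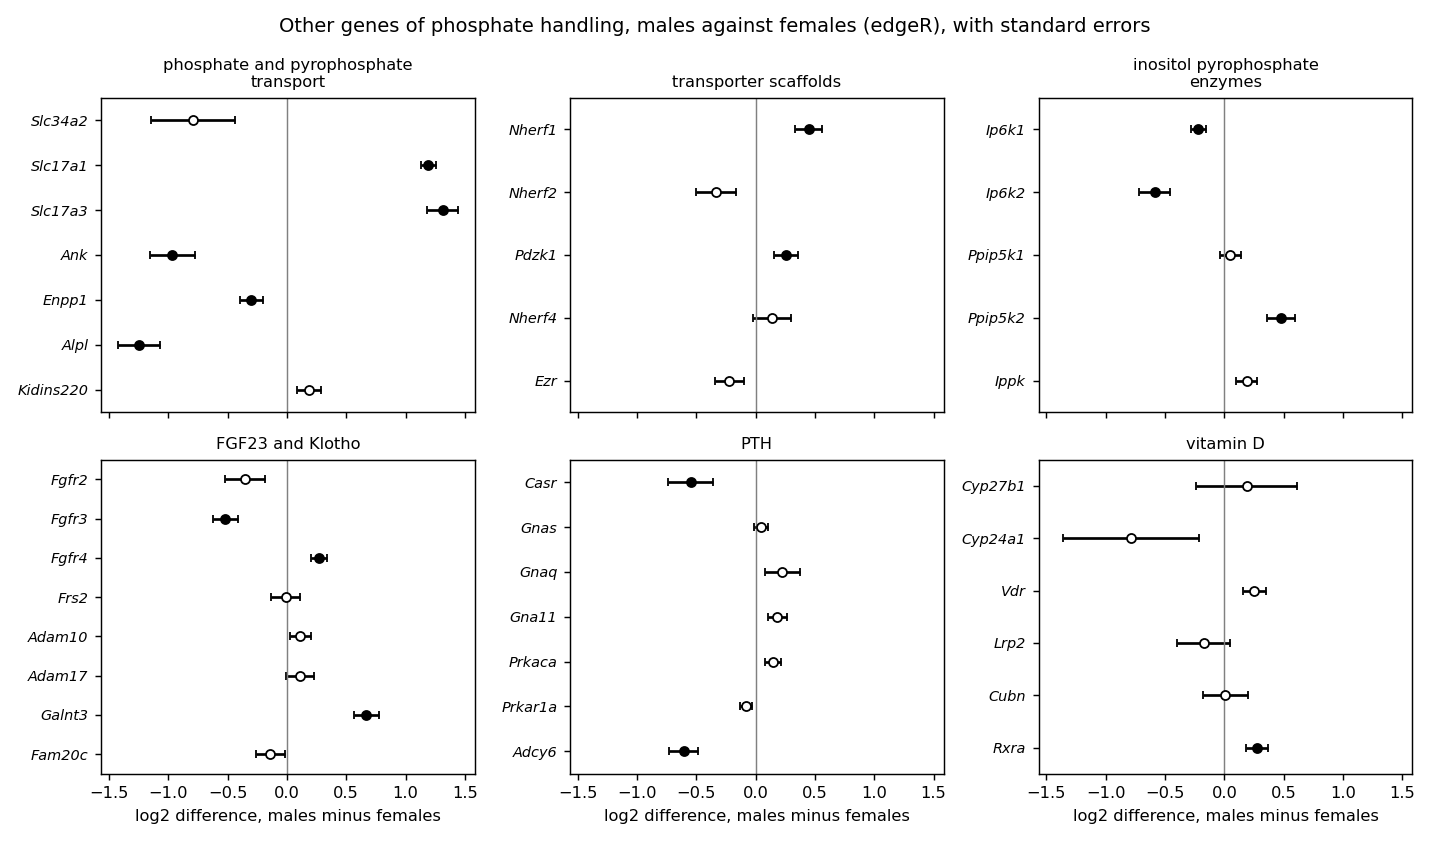
log2 differences, males minus females, with standard errors, for the tested genes of 6 lists of phosphate handling. Filled points were called (adjusted p under 0.05): 16 of 38, with *Slc17a1* and *Slc17a3* farthest to the right and *Alpl* farthest to the left.

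The hormone genes *Fgf23* and *Pth* had 0 reads in 18 of 18 libraries, where a count of 0 allows up to 3 reads; both are made outside the kidney. The enzymes that make and break down active vitamin D varied widely between mice of a group. *Cyp27b1*, the activating enzyme, ranged from 21.1 to 263 normalized counts in males and from 33.7 to 147 in females, and *Cyp24a1*, the degrading enzyme, from 35.9 to 419 in males and from 55.96 to 1228 in females. *Cyp24a1* was at most 159 in the 5 females other than the libraries that stood apart, so its high female values were in those 3. Neither was called, with log2 differences of 0.19 (SE 0.43) and -0.79 (SE 0.57). The *Cyp24a1* difference turned to 0.90 without the 3 libraries (SE 0.45, edgeR adjusted p = 0.131). *Vdr*, the vitamin D receptor gene, missed the threshold, at 0.25 (SE 0.10, edgeR adjusted p = 0.0509).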

How the data were processed

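Kidney RNA of 18 mice was sequenced, 1 library each. Per the labels and the study's methods, the authors built libraries that do not mark strand, aligned reads with STAR to GRCm39, and deposited raw gene counts with GENCODE vM36 identifiers, of which the column without regard to strand was used. Between 28.6% and 36.1% of reads per library fell on no single gene and were left out.

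A gene entered a comparison when each of its libraries held 10 counts or more, and was tested with edgeR 4.0.16 (TMM, quasi-likelihood, Benjamini-Hochberg adjustment over all genes tested, R 4.3.3). Diet was fitted within each sex, and sex and the interaction in 1 model of the 4 groups. All adjusted p-values named here are edgeR's unless DESeq2 1.42.0 or limma 3.58.1 is named. Single diet differences were also tested by exact permutation on log2(normalized count + 1), in Python 3.11.15. The fits were tested on simulated data. TPM used exon lengths from GENCODE vM39. RefSeq promoter windows (table of GRCm38.p6) were placed on GRCm39 by exact match.

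The members and gene lists were chosen with earlier results of these data known. From the lists, up to 10 genes with the smallest adjusted p-values in each comparison were named, with hormone and vitamin D genes whatever their values, and the 3 genes most like each member. Alternatives were DESeq2, limma-voom, other filters and scalings, a replicate block, offsets for length and GC content, and leaving out libraries. The offsets, the length index and the scaling by library totals were chosen after seeing the data. The RNA source is a piece of the left kidney per the study's methods.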

Additional observations from a re-analysis of the deposited data

Results flagged for a closer look

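LP female 2 had a *Slc34a1* normalized count of 64041.1, far below the other 4 LP females, which lay between 86096.5 and 92007.9. It was the only sample set apart among 24 groups of values examined (8 genes in the 3 groups with at least 4 mice), where chance alone sets apart about 1 in 20. LP female 2 is also 1 of the 3 libraries with low correlation with the others.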

How the results depend on the processing

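No diet or interaction call among the 8 genes appeared under any alternative or when any 1 mouse was left out. The count of all genes called in males (5) became 9 with no filter, 19 with DESeq2, 2 with the replicate block, 1 with all 4 groups in 1 model, and 3 with library totals alone; in females (0) it became 3, 9 with DESeq2, 2 in 1 model, and 1 without the 3 libraries; for the interaction (2) it became 5 with DESeq2, 7 with limma-voom, 1 with length and GC offsets, and 0 with the block or without the 3 libraries. Leaving out 1 mouse gave 2 to 6 genes in males, 0 to 2 in females, 0 to 4 for the interaction, and 4440 to 5314 between the sexes, with 6 to 7 of the 8 genes, 1 to 5 in NP mice, and 0 to 4 in LP mice. The 4 sex calls in NP mice became 2 with a mean-count filter, with the block, and with the groups alone. The 3 in LP mice became 5 with limma-voom or the offsets and 1 without the 3 libraries, a gene (*Fgfr1*) that is not among the 3. With the longest transcript as length, levels were 3988 (*Slc34a1*), 868 (*Pth1r*), 52.5 (*Xpr1*), 33.6 (*Slc20a2*) and 23.8 TPM (*Fgfr1*). The causes were not tested.

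Directions turned only where log2 differences were not called. In males, *Slc20a1* was -0.0015 with a mean-count filter, -0.033 with limma-voom, -0.017 with the block and -0.0043 with offsets; *Slc20a2* -0.0047 and *Pth1r* 0.039 with limma-voom; *Xpr1* 0.0070 with the block and 0.00092 with library totals. In females, *Slc20a1* was 0.047 with limma-voom and 0.30 without the 3 libraries, and *Fgfr1* -0.073 with the block and -0.0076 with offsets. For the interaction, *Kl* was 0.0151 with DESeq2 size factors and with DESeq2, 0.033 with no filter, 0.026 with a mean-count filter, 0.43 with limma-voom and 0.071 without the 3 libraries, *Slc34a3* 0.83 with limma-voom, 0.13 with the block and 0.047 with offsets, and *Slc20a1* 0.094 with limma-voom and 0.28 without the 3 libraries. Between the sexes, *Slc20a1* was -0.019 with limma-voom and -0.10 with library totals. Leaving out 1 mouse, the ranges that crossed 0 were, in males, -0.11 to 0.057 (*Slc20a1*), -0.12 to 0.057 (*Xpr1*) and -0.10 to 0.042 (*Pth1r*); in females, -0.066 to 0.34 (*Slc34a1*), -0.061 to 0.61 (*Slc34a3*), -0.25 to 0.062 (*Slc20a1*), -0.0052 to 0.11 (*Fgfr1*) and -0.33 to 0.0061 (*Pth1r*); for the interaction, -0.19 to 0.21 (*Slc34a1*), -0.38 to 0.28 (*Slc34a3*), -0.29 to 0.0499 (*Slc20a1*), -0.18 to 0.34 (*Kl*) and -0.32 to 0.036 (*Pth1r*); and between the sexes, -0.043 to 0.12 (*Slc20a1*).

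Same-numbered LP and NP mice did not deviate together (r from -0.30 to 0.33 in males and -0.61 to -0.39 in females). So few pairs cannot settle whether the numbers mark a shared batch. With the replicate block, 7 of the 8 genes were called between the sexes, as without it.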
